A study of Caenorhabditis elegans with 36 samples.

Results

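Nuclear hormone receptor genes were taken as every gene of the table named nhr followed by a number, with the first entry kept where a gene had several isoforms. This gave 279 of 20167 genes, or 1.38%. In RefSeq (assembly WBcel235) 278 of them were matched by sequence name, 267 as protein-coding genes and 11 as pseudogenes, and 275 carried the same symbol. The exceptions were nhr-284, which had no match, nhr-33 (now hizr-1, a zinc-sensing receptor), nhr-146 (now cpg-24) and nhr-151 (now C06B8.3).

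Nuclear hormone receptors are transcription factors with a zinc-finger domain that binds DNA and a second domain that can bind small lipophilic molecules such as steroids and fatty acids. The nematode family is unusually large, mainly through expansion of receptors related to HNF4, and a minority have clear counterparts in insects and vertebrates. Those studied in detail act in moulting, fat metabolism, starvation, sterol sensing and detoxification, mostly in the intestine, the hypodermis and neurons. HRDE-1 is an Argonaute of the germline, where it carries small RNAs into the nucleus and guides H3K9me3, a histone mark of silent chromatin, to their target genes.

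The study compared chromatin of whole C. elegans young adults from 2 strains, N2 as wild type (WT) and the mutant hrde-1(tm1200), which were carried as 1 lineage each through a temperature shift. Libraries were made at generation 3 at 15 °C (15C-G3), at the 2nd, 4th and 6th generation after the shift to 23 °C (named 23C-G2, G4 and G6), and at generations 1 and 2 back at 15 °C (named p15C-G1 and p15C-G2), all from repeat 2 of the study. At each generation of each strain there was 1 ChIP-seq library for elongating RNA polymerase II (Pol II, phosphorylated at serine 2), 1 for H3K9me3 and 1 of input chromatin, 36 libraries in all. Values are RPKM, that is, reads per kb of gene and per megaread of the library. Successive generations of 1 lineage stood in for replicates, so every p-value measures the spread between these libraries only, and the 15C phase had 1 library per strain. Animals at 23 °C were collected sooner after hatching than those at 15 °C, so temperature and developmental timing cannot be told apart. In whole animals fewer cells with a signal and less signal per cell cannot be told apart either.

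Estimated depth was 3.07 to 5.66 megareads for Pol II, 2.07 to 7.97 for H3K9me3 and 0.221 to 1.31 for input, which gave the median nhr gene 28 to 55, 61 to 208 and 5 to 36 reads per library. Input values of single genes are therefore coarse. Pol II over the hrde-1 gene itself was 140 ± 28.2 RPKM in WT against 94.2 ± 19.4 for the mutant (SD, n = 6), a log2 change of -0.56 (adjusted p = 0.081, limma), on a gene of which the mutant keeps a part. All 8 germline markers had lower Pol II in hrde-1 (median log2 change -0.25, summed level 366 to 561 RPKM in WT and 295 to 506 in hrde-1), and all 6 cuticle genes of the larval moult had higher Pol II (median 0.43, sum 12.1 to 35.8 in WT and 13.7 to 38.3), or 4 of 6 with library medians aligned or with quantile normalization. All 6 sperm markers (median 0.29, sum 8.93 to 31.9 in WT and 13.4 to 31.5) and all 5 muscle markers (median 0.23, sum 18 to 59.3 and 31.3 to 52.1) were higher too, or 5 and 4 with library medians aligned and 4 and 4 with quantile normalization. No marker passed the call. Of all genes tested 62.2% had a Pol II change above 0 over the 6 generations, with a median of 0.07. Among the remaining lists the yolk and intestine markers were furthest apart in their median sums. The germline sums had medians of 439 RPKM in WT and 326 in hrde-1, a smaller relative gap. Summed Pol II of the 6 zygotic embryo markers had a median of 30.7 RPKM in WT and 32.1 in hrde-1. For the 4 neuron markers it was 57.8 and 63.3, and for the 7 yolk and intestine markers 834 and 544. The sums of every marker list overlapped between the strains, so a difference in tissue content is not settled by them. No value in the table was 0.

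Most nhr genes carried little Pol II. Their median was 3.14 RPKM against 4.76 for all genes, and only 52 of 279 (18.6%) had more Pol II than input, against 37.0% of all genes. By chromosome their median was above that of all genes on V (2.88 against 2.62), IV (5.42 against 5.39) and X (6.98 against 3.35). It was below on I (1.55 against 11.4), II (3.6 against 5.11) and III (7.57 against 11.8). Over the whole family H3K9me3 was the opposite of Pol II, with a median of 8.31 RPKM against 7.81 for all genes and 181 members (64.9%) above input, against 51.3%. This was not so on every chromosome. Median H3K9me3 of the members was slightly below that of all genes on V (8.33 against 8.65), IV (7.62 against 7.64) and X (8.18 against 8.25). It was above on I (12.6 against 5.9), II (8.11 against 7.78) and III (9.67 against 5.39). Median input of the members was 7.72 RPKM against 8.23 for all genes. Strong H3K9me3 was not common among them. It passed 2 times input at 12 members (4.30%), against 6.09% of all genes. Across the 279 members the 2 marks ran in opposite directions (Spearman rho -0.52), as they did across all genes (-0.64). These correlations are across genes that share libraries and input and are a description only.

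**Figure D1:**
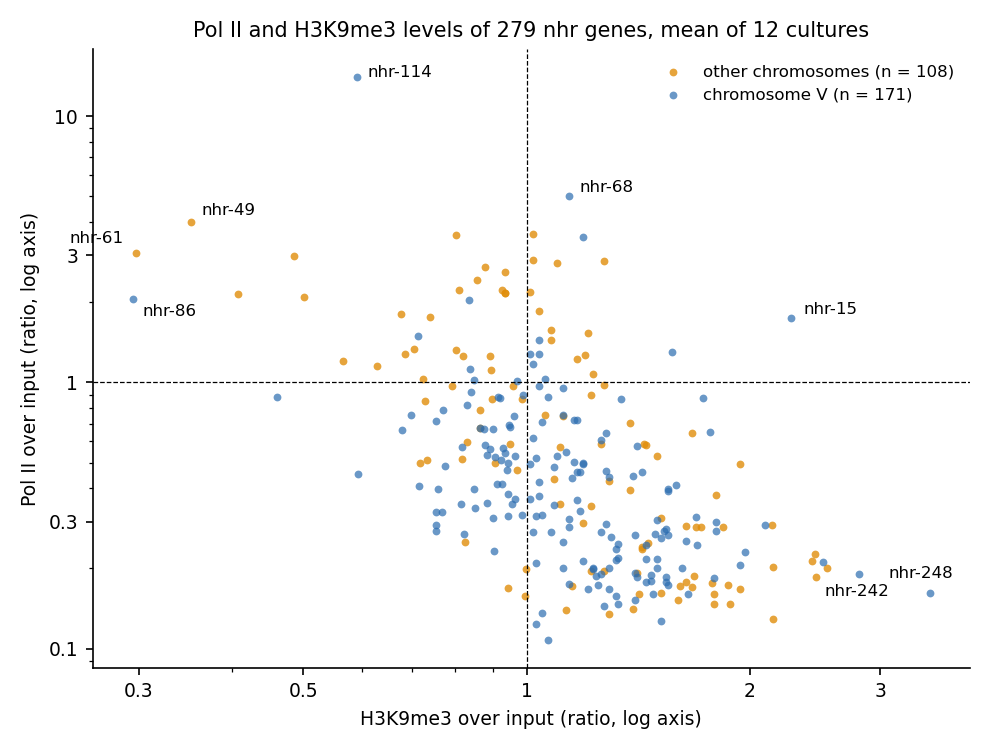
Each point is 1 of the 279 nhr genes, placed by its H3K9me3 over input (horizontal, ratio on a log axis) and its Pol II over input (vertical, ratio on a log axis), each the geometric mean of 12 cultures. Dashed lines mark a ratio of 1. Most points lie below 1 for Pol II, nhr-114 stands alone at 14, and nhr-15 is the only point above 1.5 on both axes.

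On the chromosomes the members were unevenly placed. Chromosome V held 171 of them (61.3%, against 25.1% of all genes), with 76 in its left arm, 56 in the centre and 39 in the right arm when arms are taken as the outer 25% of the chromosome on each side. Many were neighbours. Joining members less than 10 kb apart gave 157 loci, of which 110 held a single gene and 10 held at least 6 genes, 79 genes together, with 9 of these 10 on V. Members and other genes of the same region did not always have like levels. In the right arm of V, where all genes had a median H3K9me3 of 13.4 RPKM, the 39 nhr genes had 9.29, and in the left arm they had 8.37 against 9.91. Their Pol II in these arms was slightly above that of all genes (2.71 against 1.94 on the right, 2.93 against 2.03 on the left). The right arm of chromosome I was the reverse. Its 17 nhr genes had a median H3K9me3 of 14.5 RPKM against 11.5 for all genes there, a median Pol II of 1.50 against 4.72, and every one of the 17 had more H3K9me3 than input and less Pol II than input.

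**Figure D2:**
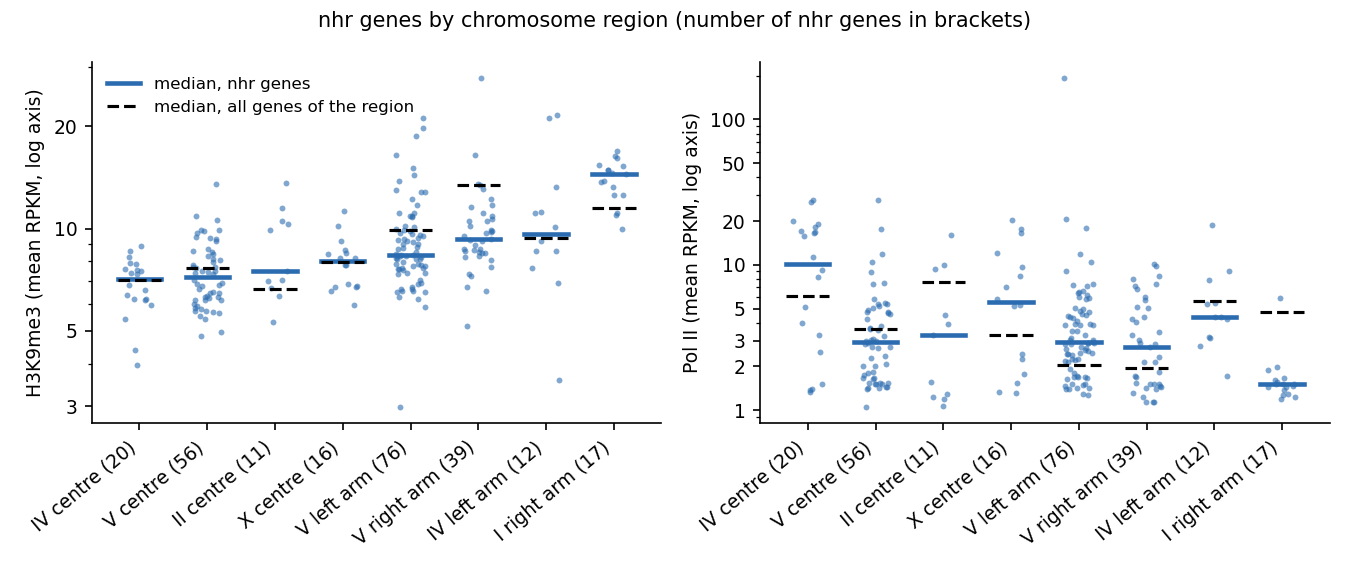
Points are the nhr genes of each chromosome region with at least 10 of them, with mean H3K9me3 (left) and mean Pol II (right) over 12 libraries in RPKM on log axes. Solid lines are the medians of the nhr genes and dashed lines those of all genes in the region. On the V arms the solid line for H3K9me3 lies under the dashed one, and on the I right arm it lies above (14.5 against 11.5).

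Levels differed more in some clusters than in others. The largest, 12 genes from nhr-123 to nhr-131 at V:451452-497212 (WS190), ranged from 7.38 to 11.7 RPKM in H3K9me3 and from 2.43 to 11.9 in Pol II. The 9 genes from nhr-185 to nhr-124 at V:3844630-3886189 had the narrowest range of Pol II among the 10 large loci, 1.26 to 1.79 RPKM, with 9.15 to 11.1 RPKM of H3K9me3. The 7 genes around nhr-209 at V:12092022-12109114 had 5.41 to 6.51 RPKM of H3K9me3 and 2.00 to 5.39 of Pol II. The single large locus off V, 6 genes at IV:1613895-1645249, held both nhr-274 with 3.58 RPKM of H3K9me3 and 18.7 of Pol II, and neighbours with up to 11.2 RPKM of H3K9me3.

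Pol II was highest at nhr-114, a receptor of the HNF4 group that acts in the intestine and germline and links diet to fertility. Its 12 libraries ranged from 106 to 304 RPKM with a mean of 193, which placed it at the 99.9th percentile of all genes and 4.60 times above the next member. It lies at V:4187171-4189992 inside Y45G5AM.9 on the other strand, and reads of the pair cannot be told apart. After it came nhr-61 (42.0 RPKM), nhr-49 (29.6), nhr-46 (27.7), nhr-68 (27.7), nhr-66 (26.9), nhr-3 (23.4) and nhr-88 (22). The gap of nhr-61 to the rest was wider than its spread (41.6 ± 5.97 in WT, 42.4 ± 8.04 in hrde-1, SD, n = 6), whereas nhr-49 to nhr-66 lay within each other's spread. Several of these are metabolic receptors: nhr-49 switches on fat desaturation and beta-oxidation, nhr-66 is a partner of nhr-49 in lipid metabolism, and nhr-68 acts in propionate breakdown. At the other end stood nhr-164 (1.05 RPKM), nhr-261 (1.07) and nhr-285 (1.13), all under the 1st percentile of all genes and with 8.70, 10.5 and 10.5 RPKM of H3K9me3.

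H3K9me3 was highest at nhr-248, at V:17103379-17104596, with 27.8 RPKM over 12 libraries and 3.5 times input. In WT its lowest, median and highest library had 22.3, 31.7 and 37.8 RPKM, in hrde-1 23.1, 25.2 and 26.8, and Pol II stayed between 0.558 and 3.19 RPKM in all 12. Next were nhr-242 (21.6), nhr-15 (21.2), nhr-236 (21.2), nhr-252 (19.8), nhr-278 (18.8), nhr-265 (16.9) and nhr-253 (16.5). Of these, nhr-252, nhr-278 and nhr-253 lie together near the left end of V, and nhr-265 is on the right arm of I. All but nhr-15 and nhr-236 (5.47 RPKM) had a mean Pol II under 2.5 RPKM. The lowest H3K9me3 of the family was at nhr-49 (2.63 RPKM) and nhr-86 (2.98), both among the members with the most Pol II.

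The comparison of hrde-1 with WT asked how loss of HRDE-1 altered Pol II and H3K9me3 over these genes, and 1 member was called. nhr-15 (F33E11.1), a receptor on the left arm of V at V:320358-323629, had 2.80 times as much Pol II in hrde-1 as in WT. In WT it had 8.61 RPKM at 15C-G3, then 9.31, 8.43 and 11.3 at 23C-G2, G4 and G6, and 9.67 and 9.56 at p15C-G1 and G2. In hrde-1 it had 28.4 at 15C-G3, then 28.3, 26.9 and 20.6 at 23C, and 26.6 and 28.3 at p15C. Every hrde-1 library lay above every WT library, in all 3 phases. On log2(RPKM + 1) the change was 1.39 over all 6 generations (SE 0.10, adjusted p = 1.2e-06, limma), 1.29 at 23C (SE 0.14, adjusted p = 0.00014) and 1.42 at p15C (SE 0.18, adjusted p = 0.00063). With input subtracted first it was 2.22 at 23C (adjusted p = 0.894) and 4.15 at p15C (adjusted p = 0.267), no longer called.

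H3K9me3 over nhr-15 went the other way. The lowest, median and highest of the 6 libraries were 24.2, 26.2 and 30.1 RPKM in WT and 13.4, 15.9 and 18 in hrde-1, again without overlap. The fall was -0.71 on the log2 scale over all 6 generations (SE 0.08, adjusted p = 1.0e-05), -0.66 at 23C (adjusted p = 0.0023) and -0.74 at p15C (adjusted p = 0.0061), which is less than 2-fold. The p15C value did not pass 0.1 without WT p15C-G2 (adjusted p = 0.132) or hrde-1 p15C-G1 (adjusted p = 0.24). Relative to input of the same culture, nhr-15 went from 3.11 to 1.66 times in H3K9me3 and from 1.11 to 2.78 times in Pol II. Input itself overlapped between the strains (9.17 ± 3.44 RPKM against 9.83 ± 2.67, SD, n = 6). The mark did not go to the level of the typical nhr gene: 15.9 ± 1.71 RPKM in hrde-1 is still above the family median of 8.31.

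**Figure D3:**
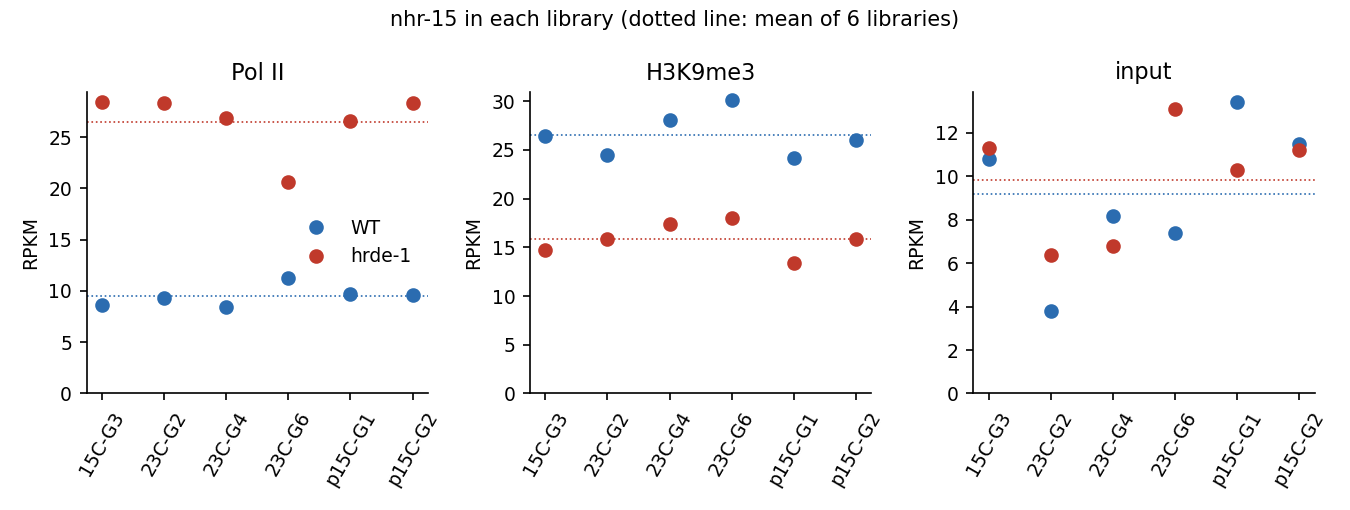
RPKM over nhr-15 in each of the 6 generations (horizontal) for Pol II, H3K9me3 and input, with WT in blue, hrde-1 in red and the mean of 6 libraries dotted. The strains do not overlap in Pol II (8.43 to 11.3 against 20.6 to 28.4) or H3K9me3 (24.2 to 30.1 against 13.4 to 18), and they overlap in input.

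The gene next to nhr-15, on the other strand and with its end facing that of nhr-15, is abt-4 at V:323798-330725, predicted to encode an ABC transporter. It carried even more H3K9me3, 34.1 ± 4.28 RPKM in WT against 25.8 ± 3.72 (SD, n = 6), a log2 change of -0.39 (adjusted p = 0.036, limma). Input at abt-4 was lower in hrde-1 as well, 13.9 ± 3.49 RPKM in WT against 10.3 ± 2.76, with overlap. The part of input in the fall of H3K9me3 was not tested. Pol II at abt-4 was 8.93 ± 2.04 and 10.5 ± 1.45 RPKM, with groups that overlap and a log2 change of 0.22 (adjusted p = 0.42). The counted window appears to reach past the ends of each gene, so some reads near this junction may count for both. By size of its rise nhr-15 ranked 98th of 20116 genes tested, among 162 that rose, and of those 162 genes 128 also had lower H3K9me3 past the adjusted p.

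A gene was called where the adjusted p was at most 0.1 and the change at least 2-fold. By this rule nhr-15 was the only member called in Pol II in each of the hrde-1 comparisons, 1 of 279 (0.358%), against 0.850% of all genes at 23C, 0.949% at p15C and 0.900% over all 6 generations. The median log2 change of the members over 6 generations was 0.13 against 0.07 for all genes, and it turned to -0.01 when library medians were aligned (-0.07 for all genes). At an unadjusted p under 0.05 there were 17 members (14 higher, 3 lower), or 6.09%, against 10.9% of all genes.

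Only nhr-239 joined nhr-15 when the size of the change was left aside, a criterion added after the values were seen: 2 of 279 members had an adjusted p of at most 0.1 over 6 generations, against 2.37% of all genes. Pol II at nhr-239 had a lowest, median and highest value of 8.19, 9.23 and 10.0 RPKM in WT and 5.40, 6.71 and 7.52 in hrde-1. The groups did not overlap, and the log2 change was -0.41 (SE 0.10, adjusted p = 0.081), and it passed 0.1 in only 1 of 10 fits with a library left out, that without WT 23C-G2 (adjusted p from 0.0578 to 0.218). Pol II at Y54F10AM.11, inside nhr-239 on the other strand, changed more (-0.76, adjusted p = 0.0014). Input was also lower in hrde-1 at both genes. At nhr-239 its median was 15.4 RPKM in WT and 10.6 in hrde-1. At Y54F10AM.11 input was 21.0 ± 10.8 RPKM in WT and 11.3 ± 4.87 in hrde-1 (SD), with overlap. With input subtracted first, no Pol II change was left at nhr-239, though input values of single genes are coarse. The part of input in the change at Y54F10AM.11 was not tested. In all, 2 members (nhr-15 and nhr-239) had Pol II libraries that did not overlap between the strains (0.717%), against 1.63% of all genes.

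Members with the next smallest p were not called. Over 6 generations these were nhr-176, a receptor of the response to the drug thiabendazole (0.60, adjusted p = 0.11), nhr-282 (0.45, 0.17) and nhr-17 (-0.51, 0.19). At 23C they were nhr-239 (-0.43), nhr-17 (-0.65), nhr-249 (0.64) and nhr-168 (0.50), with adjusted p from 0.57 to 0.91. At p15C they were nhr-49 (-0.54), nhr-156 (1.01), nhr-282 (0.83) and nhr-176 (0.94), with adjusted p from 0.19 to 0.26.

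Pol II at nhr-49 was even in WT and dipped in the mutant after the return to 15 °C. WT had 31.5 and 32.1 RPKM at p15C-G1 and G2 and 29.4 to 32.4 over all its libraries. hrde-1 had 19.0 and 24.4 at p15C, below its other 4 libraries at 29.2 to 33.0. When libraries of the same generation were paired in a replicate block, 3 members were called at p15C in place of 1: nhr-15, nhr-156 (log2 change 1.01, adjusted p = 0.0059) and nhr-114 (-1.06, adjusted p = 0.0028). The same fit called 1.45% of all genes, and 3 of 279 members is near that share. At nhr-114 WT had 249 and 304 RPKM at p15C and hrde-1 116 and 150, without overlap, whereas at 23C WT had 279, 159 and 147 and hrde-1 247, 131 and 106, with overlap. The yolk and intestine markers also had a negative median Pol II change between the strains at p15C, given with the metabolic targets below. Their part in the values of nhr-49 and nhr-114 was not tested.

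No member was called for H3K9me3 between the strains at 23C, at p15C or over all 6 generations, against 0.848%, 0.912% and 0.848% of all genes (limma). Of 279 members 30, 26 and 56 had an unadjusted p under 0.05 (10.8%, 9.32% and 20.1%), against 13.9%, 11.5% and 22.8% of all genes. Changes smaller than 2-fold were found in both directions. With no limit on size, 7 members passed at 23C (3.71% of all genes did), 5 at p15C (2.74%) and 26 over all 6 generations (11.4%), or 9.32% of members. Of these 26, 16 were higher in hrde-1 and 10 lower, beside 977 higher and 1314 lower among the 2291 genes that passed the same rule. The difference between these shares was not tested. The median change of the members was 0.08, as for all genes, and both turned slightly negative with library medians aligned (-0.005 and -0.006).

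The largest rise was at nhr-65 (V:18839274-18845327). Its lowest, median and highest H3K9me3 was 3.57, 6.13 and 6.94 RPKM in WT and 7.56, 9.33 and 10.2 in hrde-1, without overlap. The log2 change was 0.61 (SE 0.08, adjusted p = 5.6e-05). Its neighbour nhr-230, less than 2 kb further along V, rose by 0.52 (adjusted p = 0.0034), from 5.49 to 8.15 RPKM in the median, with groups that overlap. Pol II had similar medians in WT and hrde-1 at both (6.78 and 6.71 RPKM in the median at nhr-65, 6.68 and 6.90 at nhr-230).

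The second largest fall was at nhr-259 on the right arm of I (I:11436772-11437397), from a lowest, median and highest of 14.8, 18.5 and 21.5 RPKM in WT to 9.37, 11.2 and 15.7 in hrde-1, overlapping at 1 library. Its log2 change was -0.58 (adjusted p = 0.00022), and Pol II stayed between 0.651 and 2.88 RPKM in all libraries. Input at nhr-259 was higher in hrde-1 in every library (6.32 to 10.2 RPKM against 3.34 to 5.83), and its part in the result was not tested. H3K9me3 at C27C7.1, less than 2 kb away, fell further (-0.87, adjusted p = 3e-06). There input was lower in hrde-1 (18.3 ± 2.33 RPKM in WT against 12.1 ± 3.21, SD), with overlap, and its part was not tested either. nhr-88 rose by 0.42 (adjusted p = 0.00078), from 10.2 to 13.3 RPKM in WT to 15.5 to 17.4 in hrde-1, without overlap. The remaining members among the 5 smallest p in each phase were nhr-215 (0.54) and nhr-116 (-0.40) at 23C, and nhr-82 (-0.49) and nhr-114 (0.56) at p15C, with adjusted p from 0.025 to 0.077. At p15C nhr-65 (0.75, adjusted p = 0.0051) did not pass 0.1 without WT p15C-G2 or hrde-1 p15C-G1 (adjusted p up to 0.254). nhr-88 (0.46, adjusted p = 0.074) passed in 6 of 12 fits with a library left out, and not without any 1 of the 4 p15C libraries or of 23C-G4 and G6 of the mutant (adjusted p up to 0.499). At 23C nhr-65 (0.43, adjusted p = 0.068) passed in 7 of 12, and not without WT 23C-G4 or G6 or any of the 3 hrde-1 23C libraries (adjusted p up to 0.215). In total 6 members had H3K9me3 libraries without overlap between the strains, against 4.74% of all genes: nhr-15 below WT, and nhr-65, nhr-88, nhr-275, nhr-243 and nhr-27 above.

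**Figure D4:**
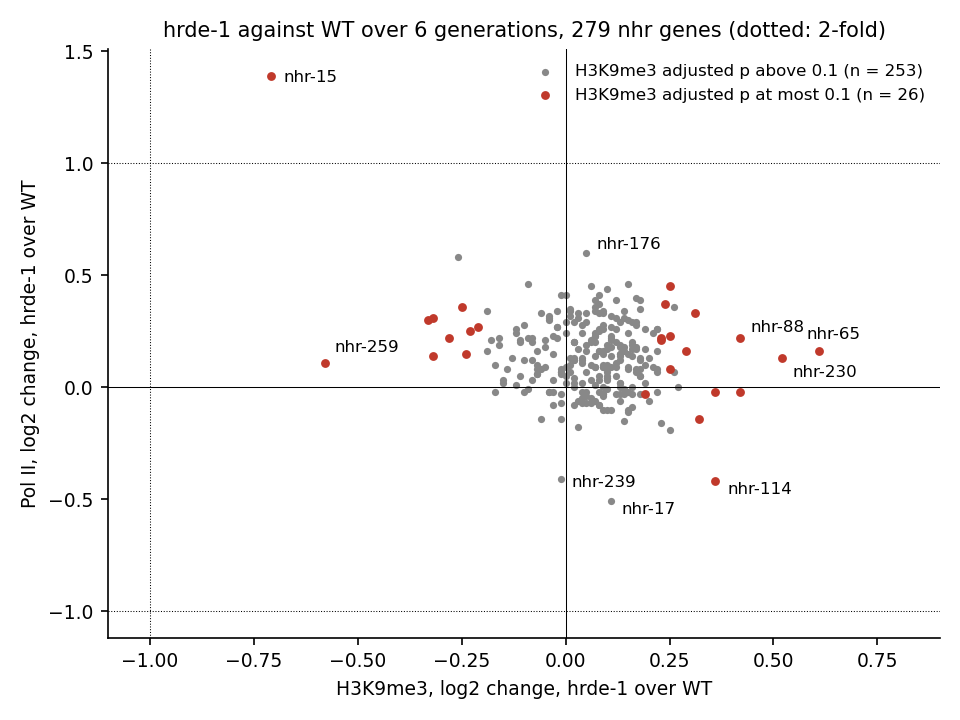
Each point is 1 nhr gene, placed by its log2 change between hrde-1 and WT over 6 generations in H3K9me3 (horizontal) and Pol II (vertical). Red marks the 26 members with an H3K9me3 adjusted p of at most 0.1, and dotted lines mark 2-fold. nhr-15 (-0.71, 1.39) lies alone, and the other 278 members lie within 1 log2 unit on both axes.

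The comparisons between phases asked how growth at 23 °C altered these genes. Between 23C and 15C-G3 no member was called for Pol II in WT (0.0149% of all genes were) or in hrde-1 (0.229%, limma), with 22 and 18 members at an unadjusted p under 0.05 (7.89% and 6.45%, against 7.97% and 7.02% of all genes). Of the 22 in WT, 21 were higher at 23C. The median change of the members was 0.25 in WT and 0.14 in hrde-1, against 0.14 and 0.07 for all genes, and it turned to -0.03 and -0.06 with library medians aligned (-0.13 and -0.12 for all genes) and to 0.02 and -0.02 with quantile normalization. In WT the smallest p were at nhr-128 (1.17), nhr-14 (0.74), nhr-70 (0.64), nhr-35 (0.67) and nhr-40 (0.60), with adjusted p from 0.48 to 0.57. In hrde-1 they were at nhr-53 (1.02), nhr-43 (0.90), nhr-152 (1.18), nhr-25 (1.72) and nhr-249 (0.98), with adjusted p from 0.28 to 0.53.

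After the return to 15 °C, 2 members differed from 23C in WT (0.717%, against 0.368% of all genes). nhr-156 had 9.29, 8.36 and 4.86 RPKM of Pol II at 23C-G2, G4 and G6 in WT, and 2.23 and 2.84 at p15C. The log2 change was 1.23 (SE 0.26, adjusted p = 0.073). nhr-168 moved the other way, with 2.86, 2.38 and 3.54 RPKM at 23C and 7.56 and 6.36 at p15C (-1.03, SE 0.22, adjusted p = 0.080). The groups of both genes did not overlap, but both calls were lost without any 1 of 7 of the 12 libraries: WT 23C-G4, WT p15C-G1 or G2, and hrde-1 23C-G4 or G6 or p15C-G1 or G2 (adjusted p up to 0.825 and 0.883). In hrde-1 nhr-156 had 9.46, 6.25 and 5.95 RPKM at 23C and 5.96 and 6.25 at p15C, with overlap.

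nhr-14, an HNF4-related receptor with a role in iron uptake, had more Pol II at 23C than at p15C in both strains, and in neither did it reach 2-fold. In WT it had 24.4, 24.5 and 22.1 RPKM at 23C against 13.5 and 14.1 at p15C and 13.8 at 15C-G3. In hrde-1 it had 26.3, 30.5 and 22 against 16.3 and 15.7 at p15C and 21.0 at 15C-G3. Its 23C values lay above all values at 15 °C within each strain. The change from p15C to 23C was 0.73 in WT (adjusted p = 0.057) and 0.67 in hrde-1 (adjusted p = 0.25). From 15C-G3 to 23C it was 0.74 in WT (adjusted p = 0.49) and 0.30 in hrde-1 (adjusted p = 0.82), where the 15C-G3 value was close to that of 23C-G6. The remaining members with the smallest p in WT were nhr-31, which acts in the excretory cell (-0.74, adjusted p = 0.10), and nhr-112 (-0.99, adjusted p = 0.22).

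In hrde-1 no member was called between 23C and p15C (0.0249% of all genes were), and 28 had an unadjusted p under 0.05 (10.0%, against 8.16% of all genes), 22 of them lower at 23C. The median of the members was -0.26 against -0.11 for all genes, and -0.15 against -0.01 with library medians aligned. Besides nhr-14 the smallest p were at nhr-49 (0.46), nhr-46 (0.43), nhr-193 (-0.93) and nhr-110 (-0.71), with adjusted p from 0.50 to 0.59. Whether the 2 strains differed in this contrast was tested directly. No member and 0% of all genes were called, and 8 members had an unadjusted p under 0.05 (2.87%, against 2.44% of all genes), with the smallest at nhr-156 (-1.04), nhr-49 (0.50), nhr-110 (-0.87), nhr-168 (0.76) and nhr-35 (0.51), all at an adjusted p of 1. With the replicate block there was again no member called, against 0.283% of all genes.

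**Figure D5:**
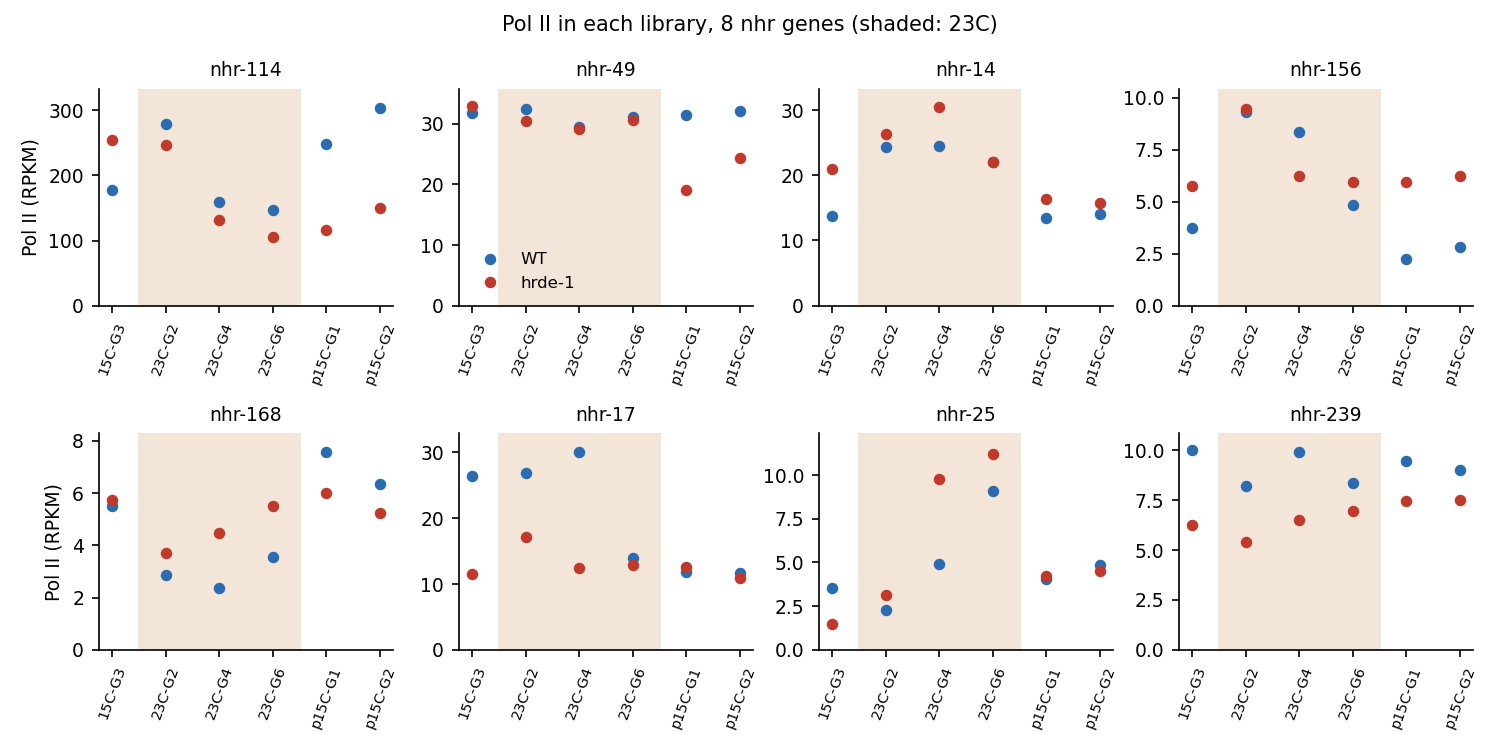
Pol II in RPKM (vertical, from 0) for 8 nhr genes in each generation (horizontal), with WT in blue, hrde-1 in red and the 23C generations shaded. nhr-14 is higher at 23C in both strains (22 to 30.5 against 13.5 to 21.0 RPKM), nhr-49 is low only in hrde-1 at p15C (19.0 and 24.4), and nhr-239 is lower in hrde-1 throughout.

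For H3K9me3 between temperatures no member was called in any of the 5 comparisons (limma): 23C against 15C-G3 in WT (0.0496% of all genes) and in hrde-1 (0.0645%), 23C against p15C in WT (0%) and in hrde-1 (0.00992%), and the difference between the strains (0%). Unadjusted p under 0.05 was found for 24, 24, 17, 10 and 2 members (8.60%, 8.60%, 6.09%, 3.58% and 0.717%), against 8.93%, 8.02%, 6.78%, 3.95% and 2.86% of all genes. The nearest to a call was nhr-65, with 3.57 RPKM at 15C-G3 in WT and 6.82, 6.79 and 6.94 at 23C (0.78, adjusted p = 0.11). In hrde-1 the same gene had 7.56 at 15C-G3 and 9.26, 9.95 and 9.40 at 23C.

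The other members with the smallest p for 23C against 15C-G3 in WT were nhr-230 (0.74), nhr-211 (0.52), nhr-209 (-0.54) and nhr-33 (-0.48), with adjusted p from 0.24 to 0.30. In hrde-1 they were nhr-284 (0.63), nhr-114 (-0.59), nhr-106 (0.43), nhr-102 (-0.52) and nhr-259 (-0.54), from 0.29 to 0.37. For 23C against p15C they were nhr-20 (0.46), nhr-280 (0.41), nhr-65 (0.41), nhr-33 (-0.36) and nhr-99 (0.37) in WT, from 0.48 to 0.60. In hrde-1 they were nhr-106 (0.36), nhr-132 (0.41), nhr-190 (0.33), nhr-209 (0.33) and nhr-8 (0.30), and for the difference between strains nhr-280 (-0.44), nhr-114 (-0.44), nhr-149 (-0.41), nhr-82 (0.34) and nhr-277 (-0.33), all at an adjusted p of 1.

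Some receptors varied widely among generations. Among the 95 members with a mean Pol II of at least 5 RPKM the highest library was a median of 1.85 times the lowest. The ratio was greatest at nhr-25 (7.60), a receptor of the Ftz-F1 group needed for moulting and epidermal development. Its Pol II was 2.28, 4.94 and 9.10 RPKM at 23C-G2, G4 and G6 in WT and 3.12, 9.77 and 11.2 in hrde-1, against 3.54 and 1.47 at 15C-G3. At p15C it was 4.05 and 4.83 in WT and 4.23 and 4.49 in hrde-1. nhr-17 was split within WT, where 15C-G3 had 26.5 RPKM, 23C-G2 and G4 had 26.9 and 30.1, and the later 3 libraries had 11.7 to 14, while hrde-1 had 10.9 to 17.2 throughout.

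Receptors with a known role were read from 3 lists. None of the 11 with counterparts across animals was called in any comparison. The comparisons called 0% to 0.949% of all genes. No call in lists this short is near that share and is not a result about these receptors. Mean Pol II of the 11 ran from 3.26 RPKM at nhr-91, the counterpart of GCNF, and 3.29 at nhr-67, of tailless, to 12.3 at nhr-23, a receptor that drives moulting. Between them lay nhr-111 (4.21), nhr-6 of the NR4A group (4.74), nhr-25 (5.25), nhr-85 of the E75 and Rev-erb group (5.92), nhr-41 (9.10), the sterol and xenobiotic receptor nhr-8 (9.21), nhr-64 (9.42) and nhr-48 (10.3). Their median Pol II change from 15C-G3 to 23C was 0.59 in WT and 0.34 in hrde-1, with 9 of 11 above 0 in both, and 0.32 and 0.14 with library medians aligned. Among all 279 members 84.2% were above 0 in WT and 67.7% in hrde-1, with medians of 0.25 and 0.14. Among all genes tested the shares were 62.6% and 58.9%. The difference from these shares was not tested.

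The 12 receptors of lipid, starvation and other metabolic control had the most Pol II, from 6.45 RPKM at nhr-13 to 193 at nhr-114. The levels of the others were 6.69 at nhr-62, which acts in dietary restriction, 7.33 at nhr-79, 7.91 at nhr-76, 8.12 at nhr-80, a partner of nhr-49 in fat desaturation, 10.6 at nhr-28, 15.5 at nhr-10, which acts with nhr-68 in propionate breakdown, and 20.6 at nhr-86. Their H3K9me3 in hrde-1 had a median log2 change of 0.15 and a range of 0.00 to 0.36, against 0.08 for all genes, with 9 of 12 above 0 when library medians were aligned. None was called in either mark, except nhr-114 for Pol II at p15C with the replicate block (-1.06, adjusted p = 0.0028). In the third list of 8 receptors Pol II was 5.70 RPKM at nhr-60, 6.93 at nhr-69, 8.37 at nhr-35, 8.41 at nhr-2, a receptor of the early embryo, 9.0 at nhr-57, a target of the hypoxia response, 10.2 at nhr-40, 17.2 at nhr-34 and 20.4 at nhr-14. None of these was called either, and their median Pol II change over 6 generations was 0.01, or -0.14 with library medians aligned.

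Genes around the receptors were read from lists. Of 5 nuclear receptors without an nhr name, daf-12, the dauer receptor, had 10.7 RPKM of Pol II, sex-1 15.8, and fax-1, odr-7 and unc-55, which act in neurons, 1.53 to 2.08. None was called, and none of 7 coregulator and ligand synthesis genes was, among them daf-36 (2.79 RPKM) and daf-9 (2.42), which make dafachronic acids, and the Mediator subunit mdt-15 (37.7), a coactivator of nhr-49. No reported comparison called more than 0.949% of all genes. The 6 metabolic targets were desaturases and genes of fatty acid and propionate breakdown. All 6 had a negative Pol II change in hrde-1 over 6 generations (median -0.56, or -0.42 and 5 of 6 with quantile normalization), and 1, fat-5, was called, against 0.900% of all genes. Of all genes tested 62.2% had a change above 0. The germline markers and the median of the yolk and intestine markers were also lower in hrde-1. Whether the targets differ from genes of like level or tissue was not tested.

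At fat-5, a palmitoyl-CoA desaturase gene that nhr-49 controls, WT had 99.4 and 93.5 RPKM of Pol II at p15C and hrde-1 21.0 and 15.0, without overlap. At 23C WT had 23.1, 35.6 and 64.6 and hrde-1 23.2, 31.5 and 30.8, with overlap. The log2 change was -2.37 at p15C (SE 0.34, adjusted p = 0.0019) and -1.07 over 6 generations (adjusted p = 0.0074), the latter under 2-fold and not called with quantile normalization (-0.93). The other 5 targets had -0.66 at acs-2, -0.64 at fat-6, -0.48 at acdh-2, -0.37 at fat-7 and -0.16 at acdh-1 over 6 generations, with adjusted p from 0.17 to 0.78. acdh-2 was called between 23C and 15C-G3 in hrde-1, with 37.7, 43.9 and 26.7 RPKM against 114 (-1.66, adjusted p = 0.049), a call lost with library medians aligned (-1.86). WT had 43.8, 61 and 47.3 RPKM at 23C against 141 at 15C-G3 (-1.47, adjusted p = 0.34). The 7 yolk and intestine markers had a median Pol II change of -0.37 over 6 generations and -0.79 at p15C between the strains, and their part in the values of the intestinal targets was not tested.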

How the data were processed

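ChIP-seq was read from 1 table of 36 libraries of whole C. elegans (12 each of Pol II, H3K9me3 and input). The authors aligned reads with Bowtie 0.12.7 (submitters' processing notes) to WS190 (study methods), kept perfect alignments on both strands and deposited RPKM per gene, without subtracting input. Values step by whole reads if 999 bp are added to each gene length (71.3 to 82.2% of genes whole within 0.02 reads), so flanks appear to be counted, and this gave the depths. They cover counting error only. ChIP carries no strand: 14 members overlap another gene. Coordinates are WS190, 1-based.

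Isoform entries (744, 19 of them nhr) were dropped. On log2(RPKM + 1), limma 3.58.1 in R 4.3.3 fitted genotype by phase over 12 libraries per mark (6 residual degrees of freedom), with a trend and Benjamini-Hochberg adjustment over genes that averaged 1 RPKM or more (20116 for Pol II, 20167 for H3K9me3, all 279 members in both). Fold changes are on this scale and understate low genes. Spread was pooled, so 15C, with 1 library per strain, was assumed to vary like the rest. The fit was tested on simulated data with known changes. Whether generation numbers pair the Pol II samples was checked. Deviations of same-numbered libraries correlated across genes at 0.71, 0.355 and 0.497 (23C) and 0.527 (p15C). Unlike-numbered ones at 23C ran from -0.593 to 0.318, the highest for WT 23C-G6 with hrde-1 23C-G4. With 2 libraries per strain at p15C the unlike value (-0.527) is fixed by the like one. The Pol II libraries were taken as paired. For H3K9me3 same-numbered libraries correlated at 0.104, 0.052 and 0.207 (23C) and 0.119 (p15C), and they were not taken as paired. The reported fits have no block for either mark, so the reported Pol II p-values and counts leave this pairing out. The paired Pol II fit is an alternative, given where it changed a call or count. The labels name no shared batch.

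Named genes were those called, otherwise the 5 smallest p per comparison, the 8 highest and 3 lowest in Pol II, the 8 highest in H3K9me3, and role lists. The widest ranges, overlapping neighbours, regions and clusters were chosen after their values were seen. The members and lists were chosen with earlier results of these data known. Alternatives covered pseudocount, filter, scaling, input, trend, libraries, pairing and isoform. mRNA and small RNA libraries were not analysed here.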

Additional observations from a re-analysis of the deposited data

Results flagged for a closer look

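Of 20 groups of 6 libraries checked for a value far from the others, 2 held one, where chance alone marks about 1 in 20 groups. Pol II over nhr-15 in hrde-1 at 23C-G6 was 20.6 RPKM, below the other 5 libraries at 26.6 to 28.4. It still lay above every WT library. Pol II over nhr-17 in hrde-1 at 23C-G2 was 17.2 RPKM, above the other 5 at 10.9 to 12.9. The cause was not tested in either.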

How the results depend on the processing

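Counts of called nhr genes stayed within 1.5 times the reported count except as follows, and the cause was not tested. With input subtracted, calls in Pol II went from 1 to 0 at 23C and at p15C (hrde-1 against WT), from 0 to 3 for 23C against 15C-G3 in hrde-1, and from 2 to 0 for 23C against p15C in WT. In H3K9me3 they went from 0 to 2 (strains at 23C), 5 (strains over all 6 generations), 3 and 4 (23C against 15C-G3 in WT and hrde-1). For Pol II of the strains at p15C, a paired fit with a replicate block gave 3, the libraries of the contrast alone 2, and leaving out 1 library 1 to 2 (2 without WT 23C-G2 or G6). In the other comparisons the block changed no call count. For 23C against 15C-G3 in hrde-1, leaving out 1 library gave 0 to 2 (nhr-25 and nhr-53 without WT 23C-G2, nhr-25 and nhr-43 without hrde-1 23C-G2). For 23C against p15C in WT, a mean of at least 5 RPKM, quantile normalization and median centring each gave 1 call, a pseudocount of 4, no trend and the libraries of the contrast alone each 0, and leaving out 1 library 0 to 4 (4 without WT 23C-G6). Without a minimum fold, added after the data were seen, 2 members passed for Pol II over all 6 generations, and 7, 5 and 26 for H3K9me3 at 23C, p15C and all 6. Of 393 values of single named genes under alternatives 323 were graded the same, 66 weaker and 4 stronger. None changed sign, though Pol II at nhr-239 was 0.00 with input subtracted. Shallow input, 1 library per strain at 15C-G3 and generations of 1 lineage limit these values.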
